A study of Mus musculus with 7 samples.

Results

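The chromosome 2 neighbourhood of Stk4 comprised 86 genes of the 54532 in the table, chosen by position, biotype and total count. A gene was included if it started between 159000000 and 169200000 on chromosome 2 (GRCm38), was annotated as protein coding or antisense, and had at least 50 counts summed over the 7 libraries. For this choice and for distances, the start of a gene is its lower coordinate on either strand. Stk4 itself and Tox2 were left out. Of the 86, 75 were protein coding and 11 antisense. The summed count is a measured value and is therefore a description of the choice, not a result. Gm27206 and Snai1, with 50 counts each, lay just inside that floor, and Rbpjl with 41 and Lpin3 with 40 just outside it. At the edges of the interval, Top1 was among the first genes and Atp9a and Zfp64 were the last, while Dhx35 and Fam83d lay just before it and Zfp217 and Bcas1 just after.

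RNA was measured by bulk sequencing of spleen cells labelled as sorted follicular helper T (Tfh) cells, a class of CD4 T cells specialised in helping germinal centre B cells. Wild-type (WT) mice gave 3 libraries, and mice labelled Mst1 knockout by genotype and Mst1∆CD4 by title gave 4, and every mouse in either group had been sensitised with ovalbumin by the intraperitoneal route. The labels do not explain that notation. The Cre driver or other means of deletion, the strain of the targeted allele and the age of the mice are not given in the sources used here. Each replicate is labelled as a biological replicate, and p-values weigh the genotype difference against the spread between these libraries.

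MST1, a kinase of the Hippo pathway, is encoded in the mouse by Stk4 and commonly called Mst1, while the mouse gene symbol Mst1 belongs to a different gene, on chromosome 9. Genes close to a targeted locus are inherited with it more often than distant genes, so a neighbourhood is a region of its own in any comparison of a targeted line with controls. This stretch of chromosome 2 holds genes of unrelated function, among them T cell signalling genes (Plcg1, Nfatc2, Ada), the co-stimulatory receptor gene Cd40, the myeloid transcription factor gene Cebpb and genes of the cell cycle (Mybl2, Ube2c).

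The libraries held between 16789158 and 18375275 counts. The label was checked against marker lists. A marker was counted as lower or higher at an adjusted p under 0.05 in the edgeR test described below. Of all genes tested, 6.83% were lower and 8.71% higher, and the lists were not tested against these shares. Summed T cell markers lay between 662 and 1062 CPM (counts per 1000000 counts of the library, its size adjusted with TMM) in the wild-type libraries and between 167 and 345 CPM in the knockout libraries, and all 12 fell. Tfh markers lay at 366 to 457 and 146 to 257 CPM, with 7 of 8 lower, and germinal centre B cell markers at 218 to 240.3 and 76.4 to 119 CPM, with 5 of 6 lower. Summed B cell markers lay at 4707 to 6263 and 1595 to 3839 CPM, with 3 of 10 lower and none higher. Neutrophil markers lay at 14570 to 18000 and 9309 to 14280 CPM, with 4 of 10 lower. Erythroid markers lay at 186.5 to 233.5 and 834.7 to 1961 CPM, with 12 of 13 higher. Monocyte and macrophage markers lay at 5568 to 9561 and 8350 to 13560 CPM, with 3 of 10 higher and 1 lower. Dendritic cell markers lay at 163.2 to 201.9 and 172.1 to 246.1 CPM, with 2 of 7 higher and 1 lower. Megakaryocyte markers lay at 17.2 to 20.26 and 28.62 to 39.32 CPM, with 2 of 5 tested higher and 0 lower. In every library the B cell, neutrophil and monocyte sums were above the T cell sum, which goes against the label of sorted Tfh cells. No marker in these lists was at 0 in all libraries. In such bulk samples fewer cells of a type and less RNA per cell cannot be told apart, and the part of cell composition in the differences below was not tested.

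Stk4 (chromosome 2, 164070322 to 164155524, plus strand) stood at 328, 316 and 336 CPM in wild-type replicates 1 to 3 and at 287, 296, 302 and 287 CPM in knockout replicates 1 to 4. The groups did not overlap (exact permutation test over 35 assignments of the libraries, two-sided, p = 0.0286, the smallest it can give), but with a log2 fold change of -0.16 (SE 0.08) Stk4 was not called when all genes were tested (edgeR adjusted p = 0.2255). The count is per gene, so reads from outside a deleted part are included.

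Of the 86 genes, 83 had enough counts for the test of genotype (edgeR quasi-likelihood test, adjusted with the Benjamini-Hochberg method over all 15795 genes tested). Snai1, Ptgis and Ripor3 did not. At an adjusted p under 0.05, 15 were lower and 1 was higher in the knockout libraries, and 67 did not pass. Of all genes tested 15.5% passed, and of the neighbourhood 19.3%. The split by direction differed more: 18.1% of the neighbourhood was lower, against 6.83% of all genes, and 1.2% was higher, against 8.71%. At least 1 log2 unit lower were 10 genes, or 12% of those tested, against 3.06% of all genes. Both lower shares include the antisense genes 0610039K10Rik, Gm27206 and Gm14302. These reached the count floor mainly through the wild-type libraries, where they were high, so their part in the shares supports nothing. The 1 gene that was higher, Slc13a3, reached the floor mainly through the knockout libraries, so the higher share supports nothing either. The median log2 fold change was -0.14 in the neighbourhood and 0.00 over all genes. The neighbourhood median was -0.07 without knockout replicate 4 and -0.22 without knockout replicate 3. Without wild-type replicate 2, wild-type replicate 3, knockout replicate 2 or wild-type replicate 1, the number of lower genes was 4, 5, 8 and 9, while the number called among all genes went from 2455 to 1050, 1161, 1384 and 1326. These shares describe the interval, and no test of the interval against other genes was made.

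**Figure D1:**
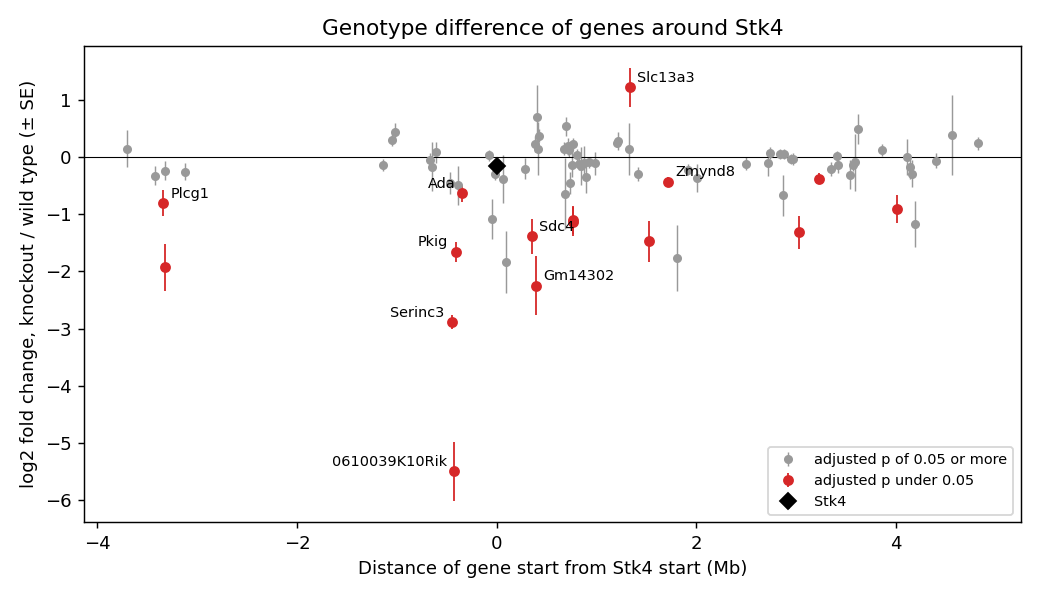
Log2 fold change (knockout over wild type, with SE) of each tested gene against the distance of its start from the start of Stk4 in Mb; red points have an edgeR adjusted p under 0.05 and the black diamond is Stk4. The start is the lower coordinate of a gene on either strand. Serinc3, 0610039K10Rik and Pkig, the farthest of which starts 0.447 Mb before Stk4 by this measure, lie at -2.88, -5.49 and -1.66, while Stk4 lies at -0.16.

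The lower genes were spread over the interval, and the 3 with the smallest p lay together just before Stk4. From Serinc3 to Ada, a stretch of 127 kb, 5 genes met the choice and 4 of them fell, against 6.83% of all genes tested. The stretch was drawn around genes that had passed, so this count only describes it and supports nothing. Among the 4, 0610039K10Rik reached the count floor mainly through the wild-type libraries. Gm16316, which lies inside Pkig on the other strand, was not called (log2 fold change -0.50, adjusted p = 0.363). Nearer still to Stk4 on that side, Ywhab, Pabpc1l and Tomm34 did not pass.

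Serinc3 (chromosome 2, 163623272 to 163645131, minus strand) encodes a multipass membrane protein of the serine incorporator family, whose members also restrict the infectivity of retroviruses. It stood at 1566, 1831 and 1408 CPM in wild-type replicates 1 to 3 and at 238, 208, 205 and 217 CPM in knockout replicates 1 to 4. Every knockout library lay far below every wild-type library, and the 4 knockout values were close together. Serinc3 fell 7.38-fold (log2 fold change -2.88, SE 0.13, adjusted p = 1.81e-05). It had the second smallest p of all 15795 genes. Among the 2428 genes with a wild-type mean of at least 100 CPM, Rpl29 and Hspa1b had a lower log2 fold change. The call held without any one library, with a log2 fold change between -2.97 and -2.78.

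Per length, Serinc3 was the most abundant gene of the neighbourhood in the wild-type libraries, at a mean of 413 FPKM (fragments per kilobase of gene length, scaled to library size), and the seventh in the knockout libraries at 55.97 FPKM. It made up between 20.9% and 24.5% of all neighbourhood CPM in the wild-type libraries and between 3.66% and 4.41% in the knockout libraries. The summed level of the other 85 genes lay between 5316 and 5658 CPM in the wild-type libraries and between 4911 and 5463 CPM in the knockout libraries, and these ranges overlap.

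0610039K10Rik (chromosome 2, 163644850 to 163645801, plus strand) is a single-exon antisense gene that overlaps the start of Serinc3. Its level was 3.66, 8.71 and 7.75 CPM in wild-type replicates 1 to 3 and 0.30, 0.056, 0.056 and 0.17 CPM in knockout replicates 1 to 4. The groups did not overlap, and the knockout libraries held 10 counts in all, against 347 in the wild-type libraries. The log2 fold change was -5.49 (SE 0.51, adjusted p = 0.000526), and it lay between -6.07 and -5.23 when each library was left out. The first exon of Serinc3 (163644998 to 163645131, 134 bases) lies wholly within the exon of 0610039K10Rik. The strand setting of the counting was not given in the sources used here, so reads of this overlap cannot be assigned to one gene with certainty.

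Pkig (chromosome 2, 163658386 to 163726158, plus strand) starts 12584 bases beyond the end of 0610039K10Rik and encodes an inhibitor of protein kinase A. It stood at 95.7, 139 and 84.8 CPM in wild-type replicates 1 to 3 and at 40.7, 30.7, 31.3 and 32.3 CPM in knockout replicates 1 to 4. Wild-type replicate 2 was the highest and the groups did not overlap. Pkig fell by 1.66 on the log2 scale (SE 0.18, adjusted p = 0.00114), and by between 1.42 and 1.80 without each library in turn, with the call kept each time.

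Ada (chromosome 2, 163726584 to 163750239, minus strand), which encodes adenosine deaminase, an enzyme of purine salvage whose loss causes severe immunodeficiency in humans, ends 425 bases from the end of Pkig. It stood at 35.7, 34.1 and 38.4 CPM in wild-type replicates 1 to 3 and at 19.7, 21.6, 21.2 and 30.1 CPM in knockout replicates 1 to 4. Knockout replicate 4 lay nearest to the wild-type range without reaching it. Ada fell by 0.64 on the log2 scale (SE 0.15, adjusted p = 0.0241). The call was lost without knockout replicate 2 (adjusted p = 0.0704) or without wild-type replicate 1, 2 or 3 (0.062, 0.0611 and 0.0883).

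The start regions of these 4 genes are shown because the genes lie side by side and fell together. Each sequence runs from 250 bases before to 50 after a RefSeq start on GRCm38.p6, written 5′ to 3′ on the gene's own strand, and capitals mark matches on either strand to the motif GGGCGG, the motif CCAAT or the motif CCGGAA. The windows are chr2:163645094-163645393 (minus strand) for Serinc3, chr2:163644600-163644899 (plus) for 0610039K10Rik, chr2:163658136-163658435 (plus) for Pkig and chr2:163750190-163750489 (minus) for Ada.
Serinc3: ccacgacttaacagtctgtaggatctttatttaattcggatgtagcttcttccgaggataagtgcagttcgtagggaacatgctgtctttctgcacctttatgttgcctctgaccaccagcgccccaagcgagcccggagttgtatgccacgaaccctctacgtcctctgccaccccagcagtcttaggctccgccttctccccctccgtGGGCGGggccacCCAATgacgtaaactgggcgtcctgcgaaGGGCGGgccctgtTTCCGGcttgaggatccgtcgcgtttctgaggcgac
0610039K10Rik: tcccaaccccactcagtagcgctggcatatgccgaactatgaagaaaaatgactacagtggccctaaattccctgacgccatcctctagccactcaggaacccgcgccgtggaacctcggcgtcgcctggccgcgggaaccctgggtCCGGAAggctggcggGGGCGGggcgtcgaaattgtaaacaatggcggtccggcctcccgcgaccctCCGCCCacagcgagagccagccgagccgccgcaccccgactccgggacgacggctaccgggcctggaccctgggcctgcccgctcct
Pkig: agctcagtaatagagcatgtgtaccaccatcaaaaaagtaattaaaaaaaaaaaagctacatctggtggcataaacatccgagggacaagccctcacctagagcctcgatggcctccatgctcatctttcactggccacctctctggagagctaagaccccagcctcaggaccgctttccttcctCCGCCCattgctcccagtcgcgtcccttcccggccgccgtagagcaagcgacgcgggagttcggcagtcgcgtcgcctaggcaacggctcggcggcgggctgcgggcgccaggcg
Ada: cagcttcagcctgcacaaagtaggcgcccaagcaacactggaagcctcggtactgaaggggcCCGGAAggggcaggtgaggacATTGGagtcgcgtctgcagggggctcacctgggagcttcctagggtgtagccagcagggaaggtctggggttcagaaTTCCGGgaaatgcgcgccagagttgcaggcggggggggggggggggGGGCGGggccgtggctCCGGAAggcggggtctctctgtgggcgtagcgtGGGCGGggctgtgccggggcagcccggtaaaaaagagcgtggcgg

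The Serinc3 window lies within the exon of 0610039K10Rik, so the antisense transcript, as annotated, runs across it. All 4 windows held GGGCGG, found in 35.7% of the 32851 promoter windows of the same length in the table. CCGGAA was found in those of Serinc3, 0610039K10Rik and Ada, and in 14.9% of all windows. CCAAT was found in those of Serinc3 and Ada, and in 37.4% of all windows. TATAAA, TGACGTCA and CACGTG were searched on both strands too, are found in 13.6%, 1.79% and 7.15% of all windows, and had no match in these 4. Between 20 and 31 CG dinucleotides stood in each of the 4 windows, against a median of 7 in all windows. GC content was 57.7% to 68% against a median of 52.7%. A match is a description of the letters and says nothing of whether a factor binds.

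**Figure D2:**
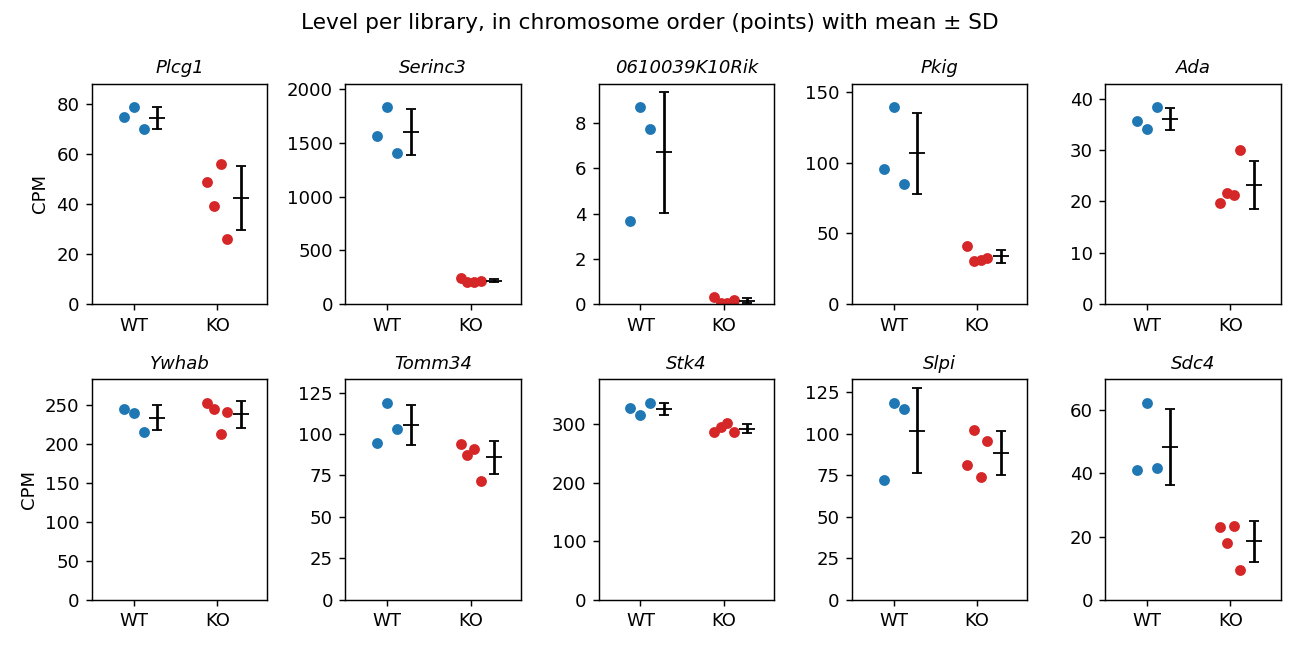
CPM in each library (points) with mean and SD for Stk4 and 9 of its neighbours in chromosome order, for wild type (WT, 3 libraries) and knockout (KO, 4 libraries); each axis starts at 0. Serinc3, 0610039K10Rik and Pkig separate widely, while the ranges of Ywhab and Slpi overlap.

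Of the 4 genes nearest to Stk4 on each side, Ada before it and Sdc4 after it passed the edgeR test and are described in other paragraphs. The others, described here, did not pass. Before it, Ywhab, which encodes a 14-3-3 adaptor protein, stood at 246, 241 and 216 CPM in wild-type replicates 1 to 3 and at 253, 246, 214 and 242 CPM in knockout replicates 1 to 4, and the groups overlapped. Tomm34, a gene of mitochondrial protein import whose transcription start, on the minus strand, overlaps the start of Stk4 by 848 bases, stood at 105 ± 12.3 CPM (SD, n = 3) and 86 ± 9.94 CPM (n = 4), with a log2 fold change of -0.29 (adjusted p = 0.128). Pabpc1l, a poly(A)-binding protein gene, stood at 1.92 ± 0.51 and 0.90 ± 0.31 CPM without overlap (log2 fold change -1.08, adjusted p = 0.0663, and 0.0287 with limma-voom). Gm11455, annotated as antisense, lies wholly inside Stk4 on the same strand and stood at 1.01 ± 0.31 and 0.77 ± 0.31 CPM. After Stk4, the potassium channel subunit gene Kcns1 stood at 1.59 ± 0.38 and 0.45 ± 0.38 CPM without overlap and lay just above the threshold (log2 fold change -1.83, adjusted p = 0.0502). It passed with DESeq2 (0.0197), limma-voom (0.00841), no filter on low counts (0.0224), RLE scaling (0.0499), upper quartile scaling (0.0478) and without knockout replicate 1 (0.00894). Its adjusted p without each of the other libraries lay between 0.0727 and 0.1595. Slpi, which encodes a secreted inhibitor of leukocyte proteases, stood at 102 ± 25.8 and 88.4 ± 13.1 CPM and its groups overlapped.

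In the whole neighbourhood 18.1% of tested genes fell, against 6.83% of all genes. The counts by role list, here and below, are small and were not tested against these shares. Among the 9 genes listed for T cell and lymphocyte signalling, 3 fell and none rose: Pkig and Ada, described above, and Plcg1. Plcg1 (160731300 to 160775760, plus strand) encodes phospholipase C gamma 1, which T cell receptor signalling activates. It stood at 74.7, 78.8 and 70 CPM in wild-type replicates 1 to 3 and at 49, 39.2, 55.9 and 26.2 CPM in knockout replicates 1 to 4, with knockout replicate 4 the lowest and no overlap. It fell by 0.81 on the log2 scale (SE 0.22, adjusted p = 0.0436). The call was lost without knockout replicate 1 or 2 (adjusted p = 0.0597 and 0.107) and without wild-type replicate 1, 2 or 3 (0.116, 0.14 and 0.102). Gm27206, an antisense gene inside Plcg1 that shares 248 exon bases with it, was at 0.72 ± 0.10 CPM in wild type and 0.18 ± 0.05 CPM in knockout and fell by 1.93 on the log2 scale (adjusted p = 0.0173), a call lost without wild-type replicate 1, 2 or 3 (0.0587, 0.0706 and 0.0543). The other 6, among them Cd40, Nfatc2 and the phosphatase gene Ptpn1, did not pass.

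T cell genes elsewhere in the genome moved in the same libraries. Cd3e, a subunit of the T cell receptor complex, stood at 52.3, 49.6 and 35.1 CPM in wild-type replicates 1 to 3 and at 17.8, 7.96, 14.1 and 5.55 CPM in knockout replicates 1 to 4. The groups did not overlap. The ratio of Plcg1 to Cd3e was 1.43 to 1.995 in the wild-type and 2.75 to 4.92 in the knockout libraries. The ratio of Serinc3 to Cd3e was 29.9 to 40.2 and 13.4 to 39.1, and these ranges overlap. That of 0610039K10Rik to Cd3e was 0.0699 to 0.221 and 0.00394 to 0.0303, resting on 10 knockout counts in all. Of the 16 ratios taken, it alone had every knockout library below every wild-type library. Several others, Plcg1 among them, had every knockout library above. These ratios are a description, since the genes were chosen for having passed.

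Of all genes tested 6.83% fell and 8.71% rose, and the lists below were not tested against these shares. Among the 25 tested partners of Plcg1 in the pathway from phospholipase C gamma through calcineurin to NFAT, which lie elsewhere in the genome, 8 fell and none rose, with a median log2 fold change of -0.30. Zap70 and Prkcq, kinases of the T cell receptor pathway, fell by 1.64 and 1.41 on the log2 scale (adjusted p = 0.00279 and 0.00333). Of 15 tested genes of adenosine metabolism, the process in which Ada acts, 1 fell, near the share of all genes, and 4 rose. The one that fell, Nt5e, encodes the enzyme that makes adenosine from AMP (log2 fold change -2.07, adjusted p = 0.000578), and Adora2b, an adenosine receptor gene, rose by 0.92. Of 15 genes of CD40 signalling, 3 fell and none rose. Cd40lg, the ligand that T cells carry, fell by 2.31 on the log2 scale (adjusted p = 0.00315), while Cd40 itself stood at 59.5 ± 2.10 and 54.9 ± 13.9 CPM with overlapping groups.

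Among the 7 genes listed for myeloid cells and proteases, 2 fell and none rose. Sdc4 (164424247 to 164443887, minus strand) encodes syndecan 4, a heparan sulfate proteoglycan of the cell surface. It stood at 41, 62.3 and 41.8 CPM in wild-type replicates 1 to 3 and at 23, 18, 23.5 and 9.52 CPM in knockout replicates 1 to 4. Wild-type replicate 2 was the highest, knockout replicate 4 the lowest, and the groups did not overlap. Sdc4 fell by 1.39 on the log2 scale (SE 0.30, adjusted p = 0.0215), a call lost on leaving out knockout replicate 2 (0.0569) or either of wild-type replicates 2 and 3 (0.0811 and 0.0546).

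Pltp (164839518 to 164857711, minus strand) encodes phospholipid transfer protein, which moves lipids between lipoproteins. It stood at 33.6, 41.2 and 24.8 CPM in wild-type replicates 1 to 3 and at 14.4, 15.7, 21 and 10.6 CPM in knockout replicates 1 to 4, without overlap. It fell by 1.10 on the log2 scale (SE 0.24, adjusted p = 0.0182), a call lost without wild-type replicate 1 or 2 (0.0584 and 0.077). Ctsa, a lysosomal protease gene that shares 495 exon bases with Pltp on the other strand, stood at 304 ± 24.8 and 355 ± 21.5 CPM, with every knockout library above every wild-type library but no call (log2 fold change 0.22, adjusted p = 0.161). Cebpb, a transcription factor of myeloid differentiation, stood at 125, 219 and 195 CPM in wild-type replicates 1 to 3 and at 246, 297, 308 and 158 CPM in knockout replicates 1 to 4. Its groups overlapped (log2 fold change 0.49, adjusted p = 0.248). Mmp9, a gelatinase gene abundant in neutrophils, also had overlapping groups. Of 12 tested genes of CEBP and MAF family factors and their partners outside the neighbourhood, Cebpa and Spi1 rose by 0.85 and 0.36 on the log2 scale, Maf fell by 0.54, and 9 did not pass. Of all genes tested 8.71% rose and 6.83% fell.

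Among the 14 genes listed for membrane traffic and transport, 2 fell, among them Serinc3, Slc13a3 rose and 11 did not pass. Slc13a3, a sodium-dependent transporter of dicarboxylates, stood at 0.73, 0.87 and 0.85 CPM in wild-type replicates 1 to 3 and at 2.54, 1.34, 1.39 and 2.35 CPM in knockout replicates 1 to 4. Its counts were 12, 15 and 15 in the wild-type and 43, 24, 25 and 42 in the knockout replicates. Slc13a3 thus reached the count floor mainly through the knockout libraries, so its place among the genes that passed supports nothing. It was the single gene of the neighbourhood that rose (log2 fold change 1.21, SE 0.35, adjusted p = 0.0453). That call was lost without knockout replicate 1, 2 or 4 (0.0854, 0.0509 and 0.0813) and without wild-type replicate 1, 2 or 3 (0.126, 0.114 and 0.12). Atp9a, a phospholipid flippase gene at the far edge, stood at 4.85 ± 0.51 CPM in the wild-type libraries and at 3.72, 2, 16.4 and 3.19 CPM in knockout replicates 1 to 4. Its log2 fold change was 0.38 with all libraries and -0.70 without knockout replicate 3.

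Among the 11 tested genes listed for transcription and chromatin, Zmynd8 and Eya2 fell and 9 did not pass. Zmynd8 encodes a reader of histone marks. It stood at 153, 166 and 154 CPM in wild-type replicates 1 to 3 and at 121, 110, 113 and 123 CPM in knockout replicates 1 to 4. Both groups were tight and did not overlap, and the fall of 0.43 on the log2 scale (SE 0.08, adjusted p = 0.0102) kept its call without any one library. Eya2, a transcriptional cofactor and phosphatase gene, stood at 3.17, 2.5 and 2.21 CPM in wild-type replicates 1 to 3 and at 1.6, 0.83, 0.72 and 0.62 CPM in knockout replicates 1 to 4. It fell by 1.47 on the log2 scale (SE 0.36, adjusted p = 0.0264), and the call was lost without knockout replicate 2 or 3 (0.0704 and 0.0503) or wild-type replicate 1, 2 or 3 (0.0906, 0.0762 and 0.0616). Ncoa3, a nuclear receptor coactivator gene, stood at 220 ± 7.29 and 188 ± 17.3 CPM without overlap and without a call (adjusted p = 0.149).

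Among the 9 tested genes listed for lipids, sugars and glycans, B4galt5 and Neurl2 fell. B4galt5, which encodes a galactosyltransferase that makes lactosylceramide, stood at 110, 104 and 102 CPM in wild-type replicates 1 to 3 and at 76.9, 85.9, 89.4 and 70.9 CPM in knockout replicates 1 to 4 (log2 fold change -0.38, SE 0.10, adjusted p = 0.0331). The groups did not overlap, but the call was lost without knockout replicate 1, 2 or 4 (0.0729, 0.0636 and 0.055) or wild-type replicate 1, 2 or 3 (0.115, 0.0939 and 0.0799). Neurl2 encodes an adaptor of ubiquitin ligases known from muscle, so its role differs from the list's name, and it shares 324 exon bases with Ctsa on the other strand. It was at 4.59 ± 1.10 CPM in wild type and 2.09 ± 0.39 CPM in knockout and fell by 1.13 on the log2 scale (adjusted p = 0.0187), a call lost without knockout replicate 2 (0.0531) or wild-type replicate 2 or 3 (0.0819 and 0.0561). Pigt, a subunit of the enzyme that attaches glycolipid anchors to proteins, stood at 102 ± 16.3 and 132 ± 7.30 CPM (adjusted p = 0.0602).

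Among the 7 genes listed for cell division and DNA, Pard6b fell and none rose. Pard6b encodes a cell polarity protein and stood at 2.68, 4.01 and 4.07 CPM in wild-type replicates 1 to 3 and at 2.25, 1.89, 1.84 and 1.68 CPM in knockout replicates 1 to 4 (log2 fold change -0.91, SE 0.24, adjusted p = 0.0363). The call was lost without knockout replicate 2, 3 or 4 (0.0859, 0.0621 and 0.0659) or wild-type replicate 2 or 3 (0.125 and 0.131). Several others of this list had higher means without a call, while Top1, the topoisomerase I gene, stood at 181 ± 33.7 and 144 ± 26.2 CPM with overlapping groups. Ube2c, a ubiquitin-conjugating enzyme of mitotic exit, stood at 92.5 ± 10.7 and 134 ± 29.2 CPM (adjusted p = 0.057), the ciliary transport gene Ift52, whose role is not in mitosis, at 34.5 ± 3.63 and 42.2 ± 2.28 CPM (adjusted p = 0.0908), and the transcription factor gene Mybl2 at 40.6 ± 3.76 and 54.6 ± 10.5 CPM (adjusted p = 0.0966). Of 18 genes that work with Mybl2 or are its targets, 9 rose, against 8.71% of all genes tested, and none fell. Among the 9 were Ccnb2, Ccnf and Aurkb at log2 fold changes of 0.71, 0.63 and 0.71. Erythroid marker sums were higher in the same libraries, and their part in these values was not tested.

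None of the 5 genes of RNA processing and translation and none of the 7 of ubiquitin and protein handling passed the edgeR test at an adjusted p under 0.05. Srsf6, a splicing factor gene, stood at 379 ± 39 and 344 ± 28 CPM, and Stau1, a double-stranded RNA-binding protein gene, at 80.2 ± 1.93 and 83 ± 4.30 CPM. Ube2v1, a cofactor of ubiquitin chain formation, stood at 2.44 ± 0.56 and 1.96 ± 0.27 CPM. Trp53rka, which encodes a kinase and not a ubiquitin gene, stood at 20.2 ± 1.70 and 16.4 ± 1.21 CPM, and its groups did not overlap. The 4 protein-coding genes in no list were Trp53tg5, Pcif1, Ocstamp and Ripor3, of which 3 were tested and none passed.

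**Figure D3:**
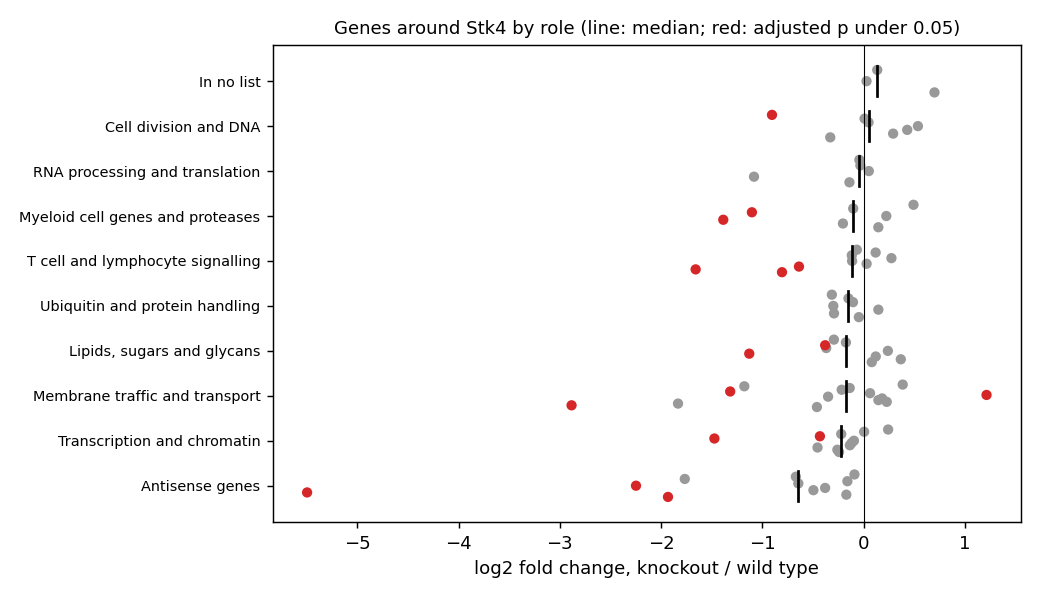
Log2 fold change (knockout over wild type) of each tested gene by role list; red points have an edgeR adjusted p under 0.05 and the line is the median of the list. The medians run from -0.65 for the antisense genes to 0.13 for the 3 tested genes in no list.

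All 11 antisense genes had a log2 fold change below 0, from -5.49 to -0.09, with a median of -0.65. Of these, 3 fell and 8 did not pass, and the 3 reached the count floor mainly through the wild-type libraries, where they were high, so the count supports nothing about antisense genes. Of 511 tested antisense genes elsewhere with the same count floor, 67.3% had a log2 fold change below 0, the median was -0.20 and 3.91% fell. Gm14302, which lies inside Sys1, a gene of Golgi trafficking, stood at 0.98, 1.92 and 1.41 CPM in wild-type replicates 1 to 3 and at 0.30, 0.50, 0.33 and 0.056 CPM in knockout replicates 1 to 4. It fell by 2.25 on the log2 scale (SE 0.52, adjusted p = 0.0216), a call lost without wild-type replicate 2 or 3 (0.0918 and 0.0709), whereas Sys1 was not called (log2 fold change 0.23, adjusted p = 0.323). Gm11465, inside Zmynd8, stood at 2.07, 0.75 and 0.57 CPM in wild-type replicates 1 to 3 and at 0.35, 0.22, 0.17 and 0.56 CPM in knockout replicates 1 to 4, and did not pass (adjusted p = 0.0715). Apart from 0610039K10Rik these genes stood at or below 2.49 CPM in every library, and 5 of the 11 share part of their exons with another of the 86 genes. Reads from those shared bases cannot be assigned to one gene without strand. Gm27206 also shares 133 exon bases with Zhx3 on the same strand, and reads from these cannot be assigned even with strand. The other 6 share no exon bases with another of the 86.

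**Figure D4:**
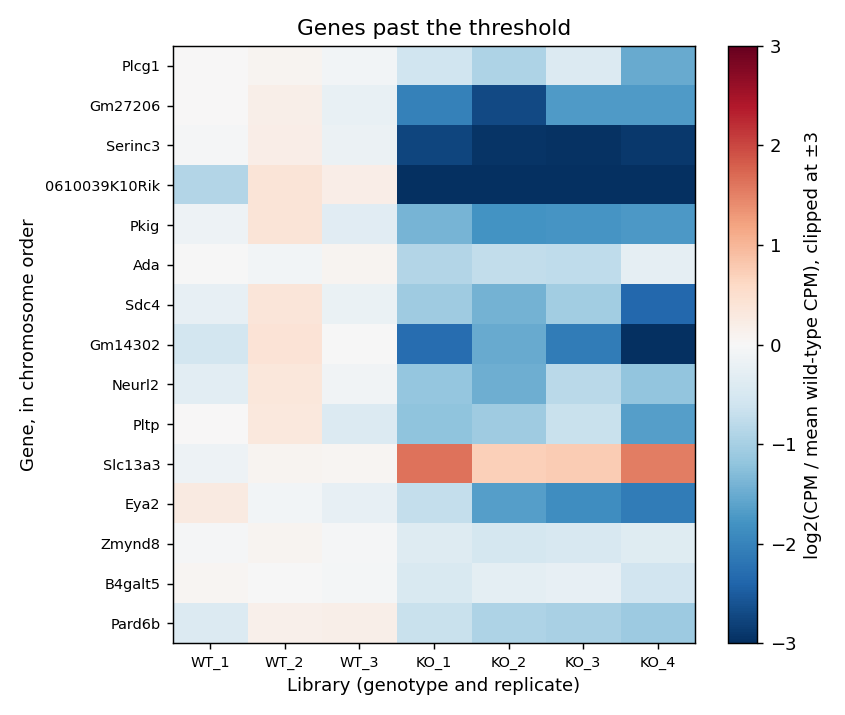
Level in each library relative to the mean wild-type level, as log2(CPM / mean wild-type CPM) clipped at ±3, for 15 of the 16 genes past the threshold in chromosome order. The 4 knockout columns are below the wild-type mean for every gene shown except Slc13a3, for which they are above it.

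By distance from Stk4, 8 of the 38 tested genes that start within 1 Mb fell, 2 of the 14 between 1 and 2.5 Mb, and 5 of the 31 farther away, which is 21.1%, 14.3% and 16.1%. The fall of at least 1 log2 unit was met by 7, 1 and 2 of them. These counts include 0610039K10Rik, Gm14302 and Gm27206, which reached the count floor mainly through the wild-type libraries. Before Stk4, 6 of 21 fell and the median log2 fold change was -0.29, and after it 9 of 62 fell with a median of -0.12. On the rest of chromosome 2, with the same biotypes and count floor, 5.72% of 961 tested genes fell and the median was 0.07. Within 5 Mb of Mst1 on chromosome 9, 15.8% of 133 tested genes fell and the median was -0.10. Mst1 itself stood at 7.81, 8.65 and 11.8 CPM in wild-type replicates 1 to 3 and at 0.83, 1.39, 1.5 and 1.85 CPM in knockout replicates 1 to 4, without overlap, and fell by 2.75 on the log2 scale (SE 0.28, adjusted p = 0.000843). Rpl29, a ribosomal protein gene that starts 1.65 Mb before Mst1, fell from 371 ± 18 CPM to 1.79 ± 0.33 CPM and had the smallest p of all genes tested. The labels name the targeted gene only as Mst1, and the counts were not used to settle which locus that is. The share that fell on chromosome 9 is thus close to that around Stk4. Genes that rose were 8 of the 133 around Mst1, 100 of the 961 on the rest of chromosome 2 and 1 of the 83 around Stk4. That 1 gene was Slc13a3, which reached the count floor mainly through the knockout libraries. Neither region was tested against the other.

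The libraries of one genotype did not move together for all genes. Knockout replicate 4 was the lowest knockout library for 38 of the 83 tested genes and knockout replicate 3 the highest for 35, and wild-type replicate 2 was the highest wild-type library for 45. The groups did not overlap for 23 genes lower in the knockout libraries (27.7%, against 14.7% of all genes tested) and for 6 genes higher (7.23%, against 15.4%). The 23 include 0610039K10Rik, Gm27206, Gm14302, Kcns1 and Gm11465, which reached the count floor mainly through the wild-type libraries. The 6 include Slc13a3, which reached it mainly through the knockout libraries. The part of these genes in the shares supports nothing. Per length, mean levels of the 86 genes ran from 0.105 to 209 FPKM with a median of 7.85 FPKM. Serinc3, Cebpb, Slpi and Srsf6 led in the wild-type libraries, and Cebpb, Ctsa, Slpi and Ptpn1 in the knockout libraries.

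Of the 26683 genes with an adjusted p in the authors' deposited table, 12.5% had a value under 0.05. Those genes were held to no count floor or biotype, so this share is not a like background for the 86. Of the 86 genes, 22 had an adjusted p under 0.05 there, 18 lower and 4 higher. All 16 genes that passed the edgeR test were among them in the same direction. The other 6 in the authors' deposited table were Kcns1, Kcng1, Ptgis, Ube2c, Slc35c2 and Pigt. Ptgis, the prostacyclin synthase gene, which had too few counts for the edgeR test, stood at 0.85, 1.97 and 0.45 CPM in wild-type replicates 1 to 3 and at 0.12, 0.056, 0.44 and 0.22 CPM in knockout replicates 1 to 4.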

How the data were processed

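RNA from sorted spleen Tfh cells was purified on RNeasy columns and made into libraries with the NEBNext Ultra kit, per the labels' protocols. Per the submitters' processing notes, reads were placed on build GRCm38 (mm10). Aligner, counter and strandedness: not given in the sources used here, and none was assumed. The authors deposited raw counts per gene, FPKM values per library and 1 comparison with log2 fold changes and p-values, per the file headers. Its sides bear unexplained codes, and its direction was read from its fold changes, which run with knockout over wild type. Counts were tested for genotype over all 7 libraries with edgeR 4.0.16 (R 4.3.3; TMM scaling, filterByExpr, robust quasi-likelihood test), with p-values adjusted over 15795 genes. CPM used TMM library sizes, and FPKM served to compare levels between genes. The exact permutation test of Stk4 covered all 35 assignments of the libraries. Alternatives used DESeq2 1.42.0, limma 3.58.1, other scalings and filters, and each library left out. All 86 genes matched GENCODE annotation by position. Promoter windows came from RefSeq (GRCm38.p6), where 65 of the 86 genes had one.

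Genes named were those past the threshold with a mean of at least 1 CPM (up to 12 a direction), the 4 nearest Stk4 on each side, the 6 highest in FPKM, up to 3 per role list by p, those at the edges of the choice, and up to 3 per pathway list. Gm14302, Cd40, Mybl2, Mmp9, Gm16316, Gm11465 and the genes of the authors' deposited table were named besides these after their values were seen. Ptpn1, Nfatc2, Sys1, Zhx3 and the genes in no list were also named outside these rules. The genes and lists were chosen with earlier results of these data known. No library was a duplicate of another: counts of replicates differed by 19.5 to 59.6 times sampling noise (chi-square per degree of freedom). Counting error is covered by the model and depth by the totals given in the report. A few genes the rule would name are not reported here.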

Additional observations from a re-analysis of the deposited data

Results flagged for a closer look

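For 3 of the genes described, 1 knockout library stood apart from the other 3 by Dixon's criterion on the gap to the nearest library over the range, which chance meets in about 1 of 20 groups. Pkig stood at 40.7 CPM in knockout replicate 1 and at 30.7 to 32.3 CPM in the others. Pigt, which adds glycolipid anchors, stood at 121 CPM in knockout replicate 1 and at 135 to 136 CPM in the others. Atp9a stood at 16.4 CPM in knockout replicate 3 and at 2 to 3.72 CPM in the others.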

How the results depend on the processing

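Of 572 values of named genes under the alternatives, 491 kept direction and side of the threshold, 59 lost a call, 17 gained one and 5 changed sign. None of the 254 values of the 16 genes past the threshold changed sign. The number of genes higher was 1 with all libraries, 4 with DESeq2, 3 with limma-voom (which called 3870 of all genes, against 2455), and 0 with a floor of 200 summed counts. Leaving out each library gave 4 to 14 genes lower, 0 to 2 higher and 1050 to 2553 of all genes. With the replicate number as a block, over the 6 libraries numbered 1 to 3, 10 were lower and 2 higher, the neighbourhood median was -0.07, and 10 of the 16 calls were shared; same-numbered libraries did not deviate together (r = -0.05, 0.01 and 0.21), so the number was not taken as a pairing. The log2 fold change of Ywhab was 0.03 with all libraries, -0.00299 with upper quartile scaling and between -0.0281 and 0.0777 when each library was left out, turning negative on leaving out knockout replicate 1 (-0.00273) or wild-type replicate 3. That of Atp9a was -0.65 with limma-voom and between -0.70 and 0.68 when each library was left out. The causes were not tested. With 3 and 4 libraries a permutation test cannot give a p below 0.0286, and genes near 1 CPM rest on few counts.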
